A study of Mus musculus with 6 samples.

Results

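Cytochrome P450 genes encode heme-containing monooxygenases. They were taken from the table as every protein-coding gene whose symbol is Cyp followed by a family number, subfamily letters and a member number, which gave 94 of 55487 genes, in 16 families and 39 subfamilies. Their RNA was measured in mouse lung tumours labelled KP; for these animals the alleles, strain, age, the source of GFP and how Cas9 or Cre was driven are not given. Each of the 6 libraries was made from sorted cells that carried GFP and lacked the leukocyte antigen CD45, taken 11 weeks after tumours were started. The 3 sgNeo libraries carried a control guide and were wild type for Lkb1, and the 3 sgLkb1 libraries carried a guide against Lkb1, the kinase gene whose official symbol is Stk11. The labels call the samples replicates and do not tie them to different animals, so the p-values rest on a spread between libraries that may be technical only.

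A P450 enzyme splits molecular oxygen at a heme iron held by a cysteine, puts one oxygen atom into its substrate and takes the electrons from a partner protein. In the endoplasmic reticulum the partner is P450 reductase, helped by cytochrome b5, and in mitochondria it is ferredoxin. Some family members clear drugs and inhaled chemicals, and in the lung these are best known from club cells of the airway, while others make or break down fatty acid mediators, sterols, steroid hormones, vitamin D and retinoic acid.

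The heme pocket is the stretch that the members have in common. Read from GENCODE M21 transcripts, the coding sequences of 90 of the 94 genes held the family's heme-binding signature, with the cysteine codon 52 to 78 codons before the end; Cyp20a1, Cyp2s1, Cyp3a59 and Cyp8b1 did not match it. These stretches belong to the 7 genes whose RNA differed between the groups. They are 30 bases of coding sequence, with the cysteine codon in capitals, and are shown because they place the part of the enzyme that binds heme and show which of these genes cannot be told apart there.
Cyp2f2: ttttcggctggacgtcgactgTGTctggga
Cyp4v3: ttttctgctggacctcgaaacTGTattggt
Cyp2c23: ttctccctcgggaagcgatccTGTgttggc
Cyp2c40: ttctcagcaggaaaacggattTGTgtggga
Cyp2c68: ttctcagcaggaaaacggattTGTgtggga
Cyp2b10: ttctcaacaggaaagcgcattTGTcttggt
Cyp7b1: tttggactcggaacaagcaaaTGTccaggg
Cyp2c40 and Cyp2c68 share all 30 bases, and a read from this stretch alone fits both genes. The stretches of the other 5 genes differ from it and from each other.

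Total counts ranged from 26007426 to 28986473 in sgNeo and from 29613629 to 41729248 in sgLkb1 libraries, so 3 counts stood for about 0.12 CPM, the count scaled to library size, in sgNeo and for 0.073 to 0.086 CPM in sgLkb1. Stk11 was at 68.3, 33.4 and 82.7 CPM in sgNeo and at 23.5, 25.6 and 25.3 CPM in sgLkb1 (log2 ratio -1.31 ± 0.30, edgeR adjusted p = 0.023). Log2 ratios are sgLkb1 over sgNeo with 1 SE. Alveolar type 2 cell markers were abundant in every library and all 10 fell, from a summed 128690 to 151910 CPM in sgNeo to 12931 to 21223 CPM in sgLkb1. Of 10 fibroblast markers 5 rose, and their sum reached 1424 CPM in sgLkb1 replicate 3 against 187 and 268 CPM in the other two sgLkb1 libraries and 39.4 to 123 CPM in sgNeo. Of 9 gastric and intestinal markers 3 rose, and sgNeo replicate 3, with a sum of 534 CPM against 161 and 148 CPM in the other two sgNeo libraries and 1027 to 2286 CPM in sgLkb1, was the sgNeo library that held Gkn1, at 46.3 CPM against 0.16 and 1.62 CPM. Of the alveolar type 1, ciliated, neuroendocrine, mesothelial, endothelial, macrophage and B cell lists, 3 of 10, 0 of 10, 0 of 3, 0 of 6, 0 of 10, 0 of 10 and 2 of 4 tested markers fell and 1, 1, 1, 2, 3, 1 and 0 rose. Over all genes tested 7.05% rose and 8.60% fell. The part of these cell types in the P450 results was not tested. In bulk RNA fewer cells of a type and less RNA per cell cannot be told apart.

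Most P450 genes were silent or nearly so in these cells. No count was found for 18 of the 94 members, 45 had counts but too few for the test, and 31 passed the filter on low counts. In the edgeR quasi-likelihood comparison of sgLkb1 with sgNeo, 7 of these 31 passed an adjusted p of 0.05, or 22.6% beside 15.7% of all genes tested. Cyp2b10 and Cyp7b1 rose, 2 of 31 against a background of 7.05% higher, and Cyp2c68, Cyp2c40, Cyp4v3, Cyp2c23 and Cyp2f2 fell, 5 of 31 against 8.60% lower. The groups did not overlap for 13 of the 31, or 41.9%, beside 36.5% of all genes tested. The median log2 fold change of the 31 was -0.18, and that of all genes tested was 0.02. The shares lie near the background, so nothing is read from them about the family as a whole, and the results are those of single genes.

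**Figure D1:**
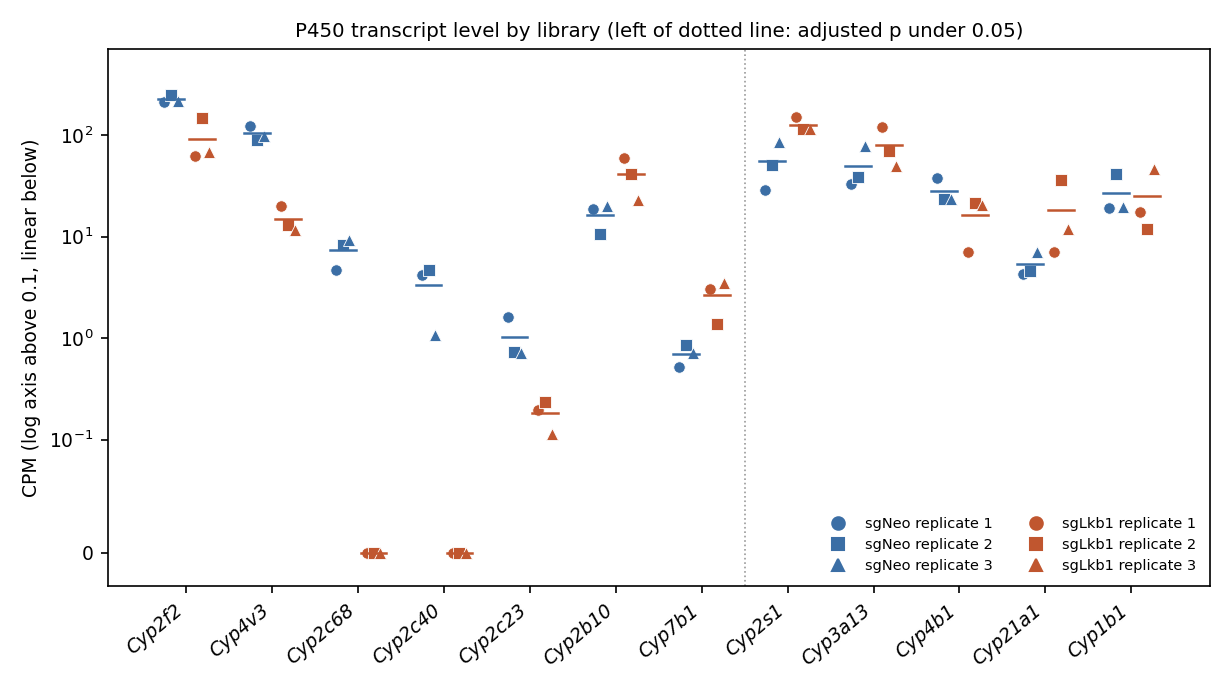
CPM of 12 P450 genes in each of the 6 libraries (y axis, logarithmic above 0.1 and linear below; blue sgNeo, orange sgLkb1; each symbol is 1 library and each short line a mean of 3). Left of the dotted line are the 7 genes with an edgeR adjusted p under 0.05, among them Cyp2c68 and Cyp2c40 with all 3 sgLkb1 libraries at 0; right of it are 5 genes that did not pass.

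**Figure D2:**
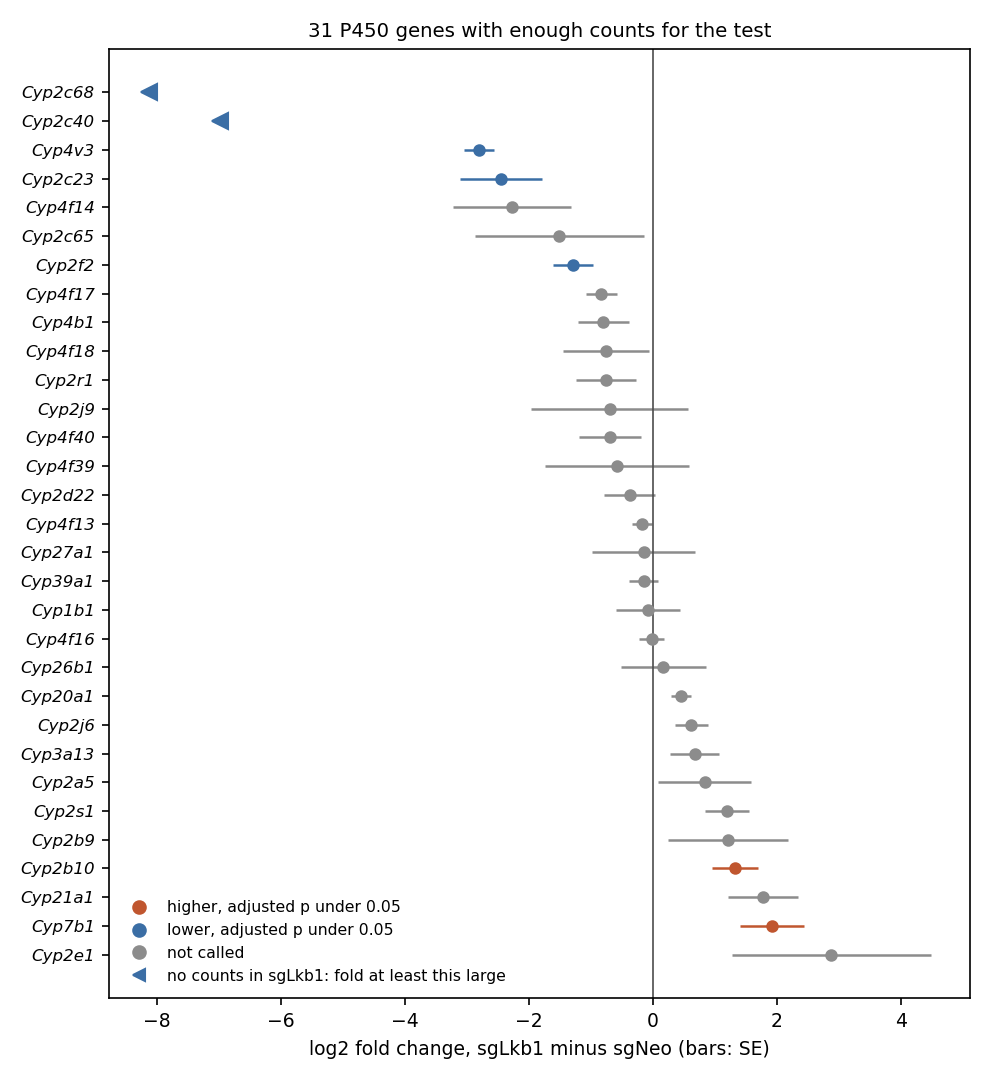
Log2 ratio, sgLkb1 over sgNeo, of the 31 P450 genes tested (x axis; circles with bars of 1 SE, orange higher, blue lower, grey not called). Triangles mark Cyp2c68 and Cyp2c40, which had no counts in sgLkb1 and whose fold is at least the value drawn.

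The epoxygenases of the Cyp2c and Cyp2j subfamilies, which turn arachidonic acid into vasoactive epoxides and in the liver also oxidise drugs, held the largest falls among the P450 genes. Of 23 members 9 had no counts and 6 were tested, of which 3 fell and none rose. The called share was 50%, beside 15.7% of all genes tested. Of the 3, Cyp2c68 and Cyp2c40 passed the filter on low counts through sgNeo alone, and they share sequence. Cyp2c55, with counts in sgLkb1 only, was left out by the filter. The share and its direction are therefore not read as a result about the group. Cyp2c68 was at 4.65, 8.26 and 9.32 CPM in sgNeo and had 0 counts in all 3 sgLkb1 libraries, against 554 counts in the sgNeo libraries together. With 3 counts set as the limit over the sgLkb1 group it was at least 281-fold lower (edgeR adjusted p = 0.00094), and the bound lay between 180-fold and 334-fold when any 1 library was left out, at 180-fold and 187-fold without sgLkb1 replicate 1 or 2. Cyp2c40 was at 4.21, 4.74 and 1.08 CPM in sgNeo and again had 0 counts in sgLkb1, which made it at least 127-fold lower (edgeR adjusted p = 0.0048), with bounds of 81.3-fold to 170-fold without 1 library, the lowest being 81.3-fold and 84.3-fold without sgLkb1 replicate 1 or 2. Neither gene's groups overlapped, and both kept their call without any 1 library. Bounds of this kind cover counting error only.

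These copies lie side by side on chromosome 19 and share sequence, so the values of the single genes are uncertain. In GRCm38, Cyp2c68 occupies chr19:39688834-39741054 and Cyp2c40 chr19:39767071-39812814, both on the minus strand, in a row with Cyp2c67 and Cyp2c69. The coding sequences of these 4 genes are 92.2 to 97.7% identical, against 59.5 to 79.5% to other Cyp2c genes. Of all 50-base stretches of their transcripts, 60.3% in Cyp2c40, 54.3% in Cyp2c69, 52.8% in Cyp2c67 and 43.3% in Cyp2c68 also occur in another gene. Summed over the 4 copies, which removes the question of how reads were divided among them, the counts were 231, 334 and 261 in sgNeo and 1, 0 and 0 in sgLkb1. That is 826 against 1, a ratio of 1258 after scaling for library size with an exact 95% interval of 225 to 49755, which covers counting error only. Cyp2c67 supplied the single sgLkb1 count, and Cyp2c67 and Cyp2c69 had 18 and 5 counts in sgNeo.

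The promoters of this row are shown next because they differ from most promoters in one short word. RefSeq promoter windows of GRCm38.p6, 250 bases before to 50 bases after a start site, were found for 73 of the 94 members. They were searched on both strands for CAAAGTCCA, a site of the HNF4 family of liver and gut nuclear receptors, and this was present in 9 of the members' 83 windows (10.8%) and in 0.475% of 32851 windows of all genes. The 9 genes were Cyp2c40, Cyp2c65, Cyp2c67, Cyp2c68, Cyp2c69, Cyp2c70, Cyp3a11, Cyp3a16 and Cyp8b1, so 6 of the 13 Cyp2c genes with a window held it. Cyp2c40, Cyp2c67, Cyp2c68 and Cyp2c69 are close copies, so the 9 matches are not independent. The windows of 112 bases start 20 bases before the match and run 5′ to 3′ on the minus strand for 4 genes and on the plus strand for Cyp2c65. Capitals mark CAAAGTCCA, a C/EBP word (TTGCNNAA, in 10.8% of all windows) and a TATA box (TATAAA, in 13.6%).
Cyp2c40, chr19:39812768-39812879: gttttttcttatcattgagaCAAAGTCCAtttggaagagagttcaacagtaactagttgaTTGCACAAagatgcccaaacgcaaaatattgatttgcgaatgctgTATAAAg
Cyp2c67, chr19:39649076-39649187: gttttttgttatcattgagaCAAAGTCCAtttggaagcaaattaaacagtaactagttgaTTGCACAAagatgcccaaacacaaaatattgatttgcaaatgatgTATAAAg
Cyp2c68, chr19:39741087-39741198: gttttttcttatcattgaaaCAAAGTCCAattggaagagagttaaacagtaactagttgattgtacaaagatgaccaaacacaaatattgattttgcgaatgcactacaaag
Cyp2c69, chr19:39886753-39886864: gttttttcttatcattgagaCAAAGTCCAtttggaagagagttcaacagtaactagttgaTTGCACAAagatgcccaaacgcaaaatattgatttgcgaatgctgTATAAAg
Cyp2c65, chr19:39060870-39060981: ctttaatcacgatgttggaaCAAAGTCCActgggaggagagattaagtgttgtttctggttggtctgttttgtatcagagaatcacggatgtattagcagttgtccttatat
Compared position by position without gaps, Cyp2c40 and Cyp2c69 have the same 112 bases. Cyp2c67 differs from Cyp2c69 at 8 of them and Cyp2c68 at 15, while Cyp2c65 differs at 61. An inserted or missing base shifts the letters after it, which can raise such a count. In Cyp2c40, Cyp2c67 and Cyp2c69 the C/EBP word begins 40 bases and TATAAA 85 bases after the start of CAAAGTCCA. CAAAGTCCA itself begins at -45, -125 and -75 from the annotated start site of these genes. TATAAA therefore lies after that site in Cyp2c40 and Cyp2c69, and before it only in Cyp2c67, so its place as a TATA box is uncertain. Cyp2c68, the most abundant of the row in sgNeo, has neither the C/EBP word nor TATAAA in this window. A match is a description of letters, and binding was not measured here.

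Genes of both factor families were measured. Hnf4a was at 29.4, 42.8 and 49.8 CPM in sgNeo and at 67.1, 97.0 and 87.5 CPM in sgLkb1, and rose (log2 ratio 1.04 ± 0.23, edgeR adjusted p = 0.019). It missed the threshold when sgNeo replicate 1 or 2, or sgLkb1 replicate 2, was left out, with edgeR adjusted p up to 0.075. Cebpa was at 98.4, 85.1 and 94.2 CPM in sgNeo and at 31.9, 19.3 and 31.8 CPM in sgLkb1, and fell (log2 ratio -1.74 ± 0.22, edgeR adjusted p = 0.0020), with or without any 1 library. The groups of Hnf4a and of Cebpa did not overlap. Cebpb, another member of the C/EBP family, was at 83.3, 72.2 and 89.2 CPM in sgNeo and at 80.2, 105 and 116 CPM in sgLkb1, with overlapping ranges, and did not pass (log2 ratio 0.30 ± 0.18, edgeR adjusted p = 0.30). The other genes of the CAAAGTCCA group gave few counts: Cyp2c70 had 10 counts in sgNeo replicate 2, 5 in sgNeo replicate 3 and none elsewhere, Cyp3a11 had 21 in sgLkb1 replicate 1 and 1 in sgNeo replicate 2, and Cyp8b1 had 2 to 5 in 3 libraries.

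Cyp2c23, the arachidonic acid epoxygenase also called Cyp2c44, lies away from the row at chr19:44005022-44029208 and shares no 50-base stretch with another gene. It was at 1.60, 0.73 and 0.72 CPM in sgNeo and at 0.20, 0.24 and 0.11 CPM in sgLkb1, and fell (log2 ratio -2.45 ± 0.66, edgeR adjusted p = 0.041). The groups did not overlap, but the gene rests on 76 and 21 counts, and without any 1 of the 6 libraries the edgeR adjusted p was 0.084 to 0.19. It was also not called by limma-voom, with the replicate number as a block (0.069) or without the filter on low counts, where adjusted p reached 0.10. Cyp2c65, a Cyp2c gene known from gut, was at 0.12, 0.65 and 11.8 CPM in sgNeo and at 0.59, 3.18 and 0.63 CPM in sgLkb1. Its only high value was in sgNeo replicate 3, the sgNeo library that held Gkn1, and its log2 ratio of -1.51 became 1.92 without that library (edgeR adjusted p = 0.50 with all libraries). The summed gastric and intestinal markers were at 534 CPM in that library and higher in sgLkb1, at 1027 to 2286 CPM. The part of such cells in the Cyp2c65 values was not tested. Cyp2c65 shares 20.7% of its 50-base stretches, nearly all with Cyp2c66, which had no counts. Cyp2c55 had 71 and 7 counts in sgLkb1 replicates 1 and 2 and none elsewhere.

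Summed over its 15 members, the Cyp2c subfamily fell from 11.0, 15.4 and 23.1 CPM in sgNeo to 2.54, 3.59 and 0.75 CPM in sgLkb1. The log2 ratio of the sum was -2.84 ± 0.55 (edgeR adjusted p = 0.012), and it passed without each of the 6 libraries, at -3.30 to -2.44. Of 5 hepatocyte markers tested, Alb and Apob fell and none rose, or 40% called beside 15.7% of all genes tested. The sum of the list was 26.6 to 60.4 CPM in sgNeo and 4.67 to 5.91 CPM in sgLkb1. Serpina1a had 0 counts in every library and Tat 0 in all but 1 of them. The part of hepatocyte markers in the Cyp2c result was not tested. No Cyp2j gene passed. Cyp2j6, its main member, was at 17.1, 16.6 and 17.2 CPM in sgNeo and at 24.6, 36.8 and 16.99 CPM in sgLkb1 (log2 ratio 0.62 ± 0.27, edgeR adjusted p = 0.17), and the groups overlapped through sgLkb1 replicate 3. Cyp2j9 was at 0 to 2.49 CPM in sgNeo and 0.20 to 0.87 CPM in sgLkb1, and its log2 ratio of -0.70 became 1.66 without sgNeo replicate 1. The Cyp2j sum, over 8 members, had a log2 ratio of 0.58 (edgeR adjusted p = 0.20).

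Cyp4v3 had the lowest adjusted p of the 7 called members. It is the mouse counterpart of human CYP4V2, an omega-hydroxylase of medium-chain fatty acids whose loss causes a crystalline degeneration of the retina, and it lies at chr8:45304944-45333216. Its RNA was at 122, 90.3 and 98.3 CPM in sgNeo and at 19.9, 12.9 and 11.7 CPM in sgLkb1. Every sgNeo library was above every sgLkb1 library, and the fall was 6.97-fold (log2 ratio -2.80 ± 0.24, edgeR adjusted p = 0.00067). It passed with each of the 6 libraries left out, at log2 ratios of -3.06 to -2.66. A share of 7.02% of its 50-base stretches also occurs in the overlapping gene Gm45753, which was listed at no more than 0.48 CPM.

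The other omega-hydroxylases, which add a hydroxyl group to the end of fatty acids, leukotrienes and related lipids, were mostly not called. Of the 17 members of this group 8 were tested, Cyp4v3 fell, and the other 7, all Cyp4f genes, did not pass. The called share of 12.5% is near the 15.7% of all genes tested. Of those 7, 6 are part of a run of 8 Cyp4f genes at chr17:32452723-32947402, where no gene was called. Cyp4f13 was at 24.3, 24.4 and 28.7 CPM in sgNeo and at 22.3, 23.2 and 23.0 CPM in sgLkb1, a log2 ratio of -0.18 (edgeR adjusted p = 0.49) although the groups did not overlap. Cyp4f16 was at 17.8, 19.03 and 25.5 CPM in sgNeo and 18.3, 23.2 and 20.2 CPM in sgLkb1 (log2 ratio -0.02 ± 0.20, edgeR adjusted p = 0.97). Cyp4f18, Cyp4f39 and Cyp4f40 were below 5 CPM in every library, with log2 ratios of -0.76, -0.57 and -0.69 and edgeR adjusted p of 0.51, 0.78 and 0.40, and Cyp4f18 shares exon bases with Zfp961 on the opposite strand. Cyp4f17 was at 7.70, 10.1 and 9.04 CPM in sgNeo and at 4.72, 5.67 and 4.73 CPM in sgLkb1, without overlap (log2 ratio -0.83 ± 0.26, edgeR adjusted p = 0.063), and DESeq2 called it at an adjusted p of 0.020. Cyp4f14, an omega-hydroxylase of leukotriene B4, was at 2.57, 0.28 and 8.05 CPM in sgNeo and at 0.78, 0.94 and 0.52 CPM in sgLkb1, so that 1 sgNeo library lay below all sgLkb1 libraries (edgeR adjusted p = 0.15). The sum of the 9 Cyp4f genes was 60.6, 57.6 and 76.6 CPM in sgNeo and 51.4, 55.0 and 51.7 CPM in sgLkb1 (log2 ratio -0.30 ± 0.16, edgeR adjusted p = 0.24). Of the 5 Cyp4a genes, induced in liver by PPAR alpha, only Cyp4a29 and Cyp4a31 had counts, with 1 and 7 in sgNeo replicate 2. Ppara itself was at 1.89, 1.54 and 1.91 CPM in sgNeo and at 0.42, 0 and 0.17 CPM in sgLkb1 (edgeR adjusted p = 0.067).

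Among the 32 P450 genes of airway and liver that act on foreign chemicals, 9 were tested, 1 rose and 1 fell. That is 22.2% called, beside 15.7% of all genes tested. Cyp2f2, the club cell enzyme that turns naphthalene into a toxic epoxide in mouse lung, was the most abundant P450 in every sgNeo library. It was at 210, 248 and 218 CPM in sgNeo and at 62.5, 146 and 67.8 CPM in sgLkb1. The groups did not overlap, sgLkb1 replicate 2 was well above the other two sgLkb1 libraries, and the gene fell 2.44-fold (log2 ratio -1.29 ± 0.32, edgeR adjusted p = 0.031). The call was lost without any 1 sgNeo library or without sgLkb1 replicate 3, with edgeR adjusted p up to 0.11, and the log2 ratio was -1.76 without sgLkb1 replicate 2. Of its 50-base stretches 8.997% lie in the antisense gene Gm15883, which was at 0.073 to 0.72 CPM.

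Of 10 other club cell markers 3 rose, 1 fell and 6 did not pass, or 40% called beside 15.7% of all genes tested. Their sum was 1424 to 1497 CPM in sgNeo and 1418 to 2233 CPM in sgLkb1. Scgb1a1, the main club cell secretory protein, was at 235, 374 and 253 CPM in sgNeo and at 157, 64.1 and 531 CPM in sgLkb1 (edgeR adjusted p = 0.87). Scgb1a1 was lowest in sgLkb1 replicate 2, the sgLkb1 library in which Cyp2f2 was highest. The sum of the 10 markers went the other way and was highest in that library, at 2233 CPM. It was 1418 and 1914 CPM in sgLkb1 replicates 1 and 3. The 10 markers include Por, Aldh3a1 and Aldh1a7, which also stand in other lists below. Por, the general P450 reductase, was likewise highest in sgLkb1 replicate 2. The part of club cells in the Cyp2f2 result was not tested.

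Cyp2b10, the enzyme by which liver responds to phenobarbital through the receptor CAR and which is also made in mouse lung, rose. It was at 18.6, 10.6 and 19.996 CPM in sgNeo and at 59.1, 41.5 and 22.8 CPM in sgLkb1, with a log2 ratio of 1.33 ± 0.37 (edgeR adjusted p = 0.045). The groups did not overlap, but sgLkb1 replicate 3 lay just above sgNeo replicate 3. The call held without sgLkb1 replicate 3 (edgeR adjusted p = 0.017) and was lost without each of the other 5 libraries, at up to 0.15, and by limma-voom, at 0.069. The sum of the 5 Cyp2b genes gave the same log2 ratio of 1.33 (edgeR adjusted p = 0.042), and 8.70% of the 50-base stretches of Cyp2b10 are shared, mostly with Cyp2b13. Nr1i3, the gene of CAR, was too low to test, at 0.026 to 0.34 CPM in every library.

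Cyp2f2 and Cyp2b10 lie in the same run of 13 P450 genes at chr7:25802475-27158668, and moved in opposite directions within it. The run starts with Cyp2s1, an enzyme of lung and gut lining known to respond to the aryl hydrocarbon receptor. Cyp2s1 was at 28.6, 51.2 and 85.9 CPM in sgNeo and at 152, 114 and 115 CPM in sgLkb1. Its groups did not overlap, yet it missed the threshold (log2 ratio 1.2005 ± 0.36, edgeR adjusted p = 0.057). DESeq2, limma-voom, upper-quartile scaling, the fit without a filter and the fit without sgNeo replicate 3 did call it higher. Next to it lies Cyp2b10 (chr7:25897620-25926624), and Cyp2f2 (chr7:27119909-27133660) is near the far end. Between them Cyp2b9 and Cyp2a5 stayed under 1 CPM in every library, and neither passed (edgeR adjusted p = 0.44 and 0.50).

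**Figure D3:**
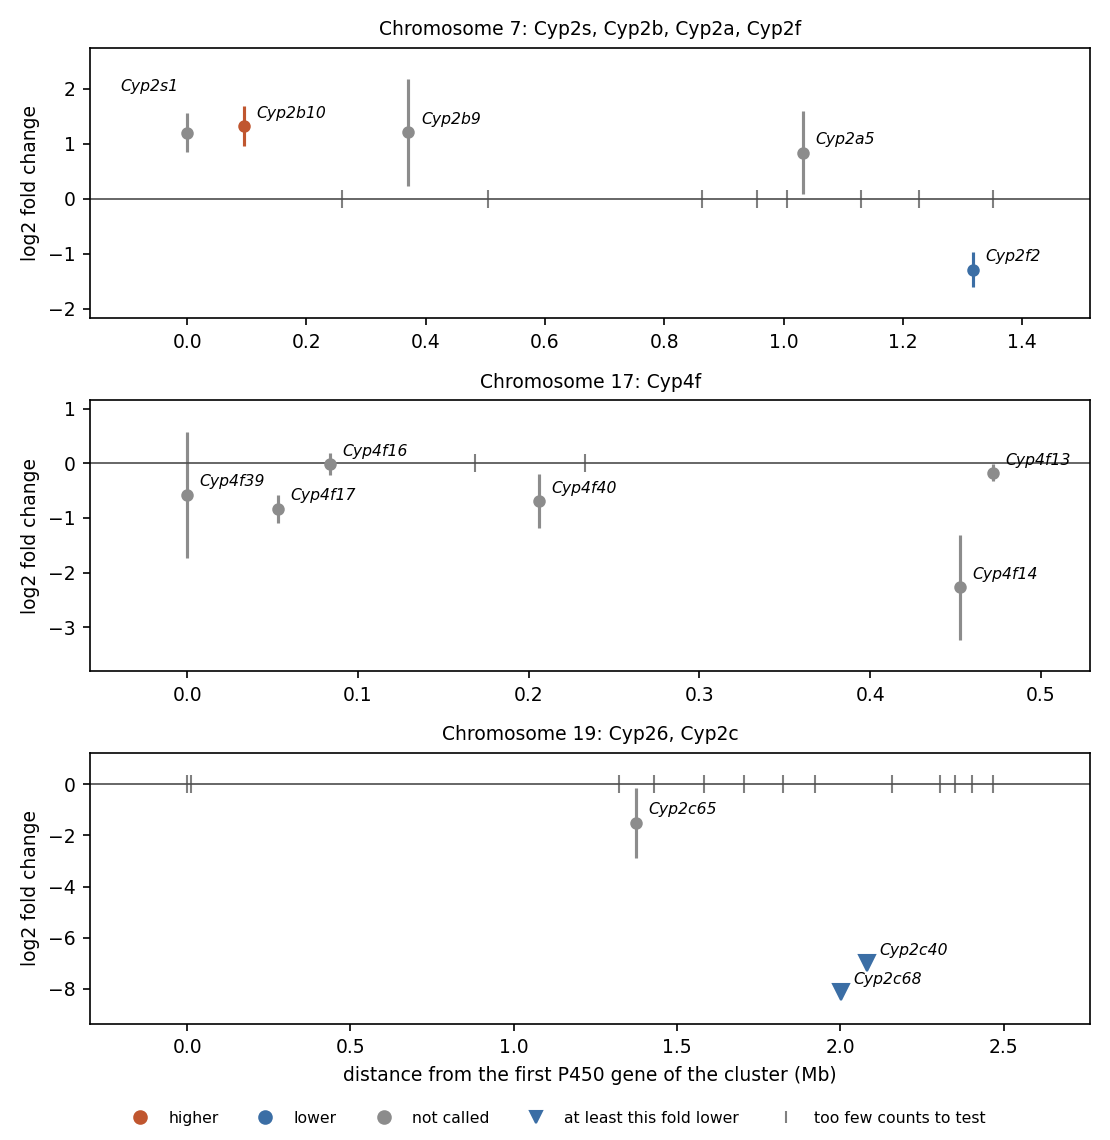
Log2 ratio, sgLkb1 over sgNeo, with bars of 1 SE, against distance along 3 runs of neighbouring P450 genes (x axis in Mb from the first gene; ticks on the zero line are genes with too few counts to test). On chromosome 7 Cyp2b10 is higher and Cyp2f2 lower, on chromosome 17 no Cyp4f gene passed, and on chromosome 19 Cyp2c68 and Cyp2c40 are drawn at the smallest fold their counts allow.

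Cyp3a13, the Cyp3a gene that stands apart from the liver Cyp3a cluster, was at 33.3, 38.8 and 77.2 CPM in sgNeo and at 119, 69.8 and 49.4 CPM in sgLkb1. The ranges overlapped and it did not pass (log2 ratio 0.68 ± 0.40, edgeR adjusted p = 0.29). Cyp4b1, a lung P450 that activates the plant toxin ipomeanol, was at 38.0, 23.3 and 23.4 CPM in sgNeo and at 7.07, 21.3 and 20.5 CPM in sgLkb1. Its groups did not overlap but were close, with sgLkb1 replicate 1 alone far below (log2 ratio -0.80 ± 0.41, edgeR adjusted p = 0.23). Cyp2d22, the main Cyp2d gene here, was at 2.61, 3.81 and 3.35 CPM in sgNeo and at 3.50, 1.496 and 2.53 CPM in sgLkb1 (edgeR adjusted p = 0.60). Cyp2e1, the ethanol-induced liver enzyme, was at 0.40, 0.12 and 0 CPM in sgNeo and at 0, 0.89 and 3.04 CPM in sgLkb1, highest in the library richest in fibroblast markers, and did not pass (edgeR adjusted p = 0.27).

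The P450 genes of sterol breakdown held the second rise. Cyp7b1, the oxysterol hydroxylase of the acidic route to bile acids, lies at chr3:18071950-18243338 and has no 50-base stretch in common with another gene. It was low, at 0.52, 0.85 and 0.72 CPM in sgNeo and at 3.08, 1.36 and 3.53 CPM in sgLkb1. No value overlapped, and the gene rose 3.80-fold on 52 and 301 counts (log2 ratio 1.93 ± 0.52, edgeR adjusted p = 0.041). The call held without sgLkb1 replicate 2 (edgeR adjusted p = 0.032) and was lost without each of the other 5 libraries, at up to 0.13, with the replicate number as a block, at 0.074, and by limma-voom, at 0.097.

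Cyp39a1, which acts on the brain's oxysterol, was at 33.0, 26.9 and 26.3 CPM in sgNeo and 33.5, 26.03 and 18.5 CPM in sgLkb1 (log2 ratio -0.14 ± 0.23, edgeR adjusted p = 0.73). Cyp27a1, the mitochondrial sterol hydroxylase, stayed at 0.16 to 0.93 CPM in sgNeo and 0.20 to 0.64 CPM in sgLkb1. Cyp7a1, the rate-limiting enzyme of the classical bile acid route, had 8 counts in sgLkb1 replicate 2 and none elsewhere. Cyp46a1, the brain cholesterol hydroxylase, had 12, 5 and 5 counts in sgNeo and 0, 2 and 13 in sgLkb1.

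Around these enzymes, 11 genes of the oxysterol and bile acid pathway were tested, none rose, and Soat1 and Nr1h3 fell. This share of 18.2% is near the 15.7% called over all genes tested. Soat1, which esterifies cholesterol for storage, was at 426, 401 and 339 CPM in sgNeo and at 170, 87.6 and 108 CPM in sgLkb1 (log2 ratio -1.67 ± 0.26, edgeR adjusted p = 0.0048), and passed without each library. Nr1h3, the gene of the oxysterol receptor LXR alpha, was at 21.5, 16.5 and 23.4 CPM in sgNeo and at 10.2, 7.92 and 14.2 CPM in sgLkb1 (log2 ratio -0.93 ± 0.26, edgeR adjusted p = 0.048). It lost the call without each library except sgLkb1 replicate 3, at an edgeR adjusted p of up to 0.15, and under RLE and upper-quartile scaling, at up to 0.062. Ch25h, which makes an oxysterol that Cyp7b1 hydroxylates, was at 2.85, 2.02 and 2.87 CPM in sgNeo and 4.21, 2.05 and 6.92 CPM in sgLkb1. Hsd3b7, the next enzyme after Cyp7b1, was at 54.1 to 74.8 CPM in sgNeo and 43.4 to 77.6 CPM in sgLkb1. Neither passed, with edgeR adjusted p of 0.32 and 0.84.

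Steroid hormone synthesis was represented by 2 genes with more than a trace. Cyp21a1, the steroid hydroxylase of the adrenal cortex, was at 4.29, 4.62 and 7.05 CPM in sgNeo and at 7.05, 35.9 and 11.9 CPM in sgLkb1. The groups met at 7.05 CPM and the gene did not pass (log2 ratio 1.78 ± 0.57, edgeR adjusted p = 0.071), while the call was made without sgLkb1 replicate 1 (0.019), by DESeq2 and without the filter. Of its 50-base stretches 23.9% are shared, mostly with the pseudogene Cyp21a2-ps, so its level is uncertain. Cyp11a1, which cuts the side chain of cholesterol in steroid-making cells, had 1, 3 and 5 counts in sgNeo and 12, 73 and 41 in sgLkb1, the most of any member left out by the filter. A part of an exon of Cyp11a1 lies in the lincRNA Gm17322, which was at 0.53 to 0.60 CPM in sgNeo and at 2.76, 33.7 and 18.9 CPM in sgLkb1, and reads of the overlap cannot be assigned to either with confidence. Cyp11b1, Cyp17a1 and Cyp19a1 had no more than 3 counts in any library, and Cyp11b2 had none.

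Retinoic acid is cleared by the Cyp26 enzymes. Cyp26b1 stayed low at 0.52, 0.69 and 0.28 CPM in sgNeo and 0.29, 0.47 and 0.92 CPM in sgLkb1 (edgeR adjusted p = 0.90). Cyp26a1, a gene that retinoic acid induces, had 0, 0 and 6 counts in sgNeo and 2, 21 and 59 in sgLkb1, too few for the filter. Of 15 tested genes of the retinoic acid pathway Aldh1a2, Aldh1a3 and Rdh10 rose and Dhrs3, Rbp4, Rdh11, Aldh1a7 and Fabp5 fell. The called share was 53.3%, beside 15.7% of all genes tested. The 3 that rose encode enzymes of its synthesis, and Aldh1a2 was at 2.77, 0.40 and 0.92 CPM in sgNeo and at 13.5, 138 and 57.0 CPM in sgLkb1 (log2 ratio 5.67, edgeR adjusted p = 0.0075). Aldh1a3 was at 63.1, 104 and 94.5 CPM in sgNeo and at 191, 490 and 417 CPM in sgLkb1 (log2 ratio 2.07, edgeR adjusted p = 0.0077). Both passed without each library, though limma-voom did not call Aldh1a2 (adjusted p = 0.094). Dhrs3, which turns retinal back into retinol, fell from 141 to 160 CPM in sgNeo to 71.4 to 81.6 CPM in sgLkb1 (log2 ratio -0.999, edgeR adjusted p = 0.0034), and Rbp4, the retinol carrier, fell from 56.4, 103 and 142 CPM to 37.9, 30.9 and 21.4 CPM (log2 ratio -1.74, edgeR adjusted p = 0.013, and 0.051 without sgNeo replicate 2).

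Of the vitamin D enzymes only Cyp2r1, a vitamin D hydroxylase, was tested. It was at 3.13, 2.27 and 1.31 CPM in sgNeo and at 1.32, 1.73 and 0.92 CPM in sgLkb1, and did not pass (log2 ratio -0.75 ± 0.49, edgeR adjusted p = 0.34). Cyp27b1, which activates the vitamin, had 8, 1 and 0 counts in sgNeo and 10, 0 and 0 in sgLkb1, and Cyp24a1, which degrades it, had 1, 0 and 0 against 10, 2 and 0. Cyp20a1, a member without a known substrate, was at 19.8, 22.3 and 21.7 CPM in sgNeo and at 29.7, 32.2 and 25.4 CPM in sgLkb1. Its groups did not overlap, and it did not pass (log2 ratio 0.45 ± 0.16, edgeR adjusted p = 0.10).

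The Cyp1 genes are the textbook targets of the aryl hydrocarbon receptor, the sensor of dioxin and smoke. Cyp1b1 was at 19.1, 41.2 and 19.6 CPM in sgNeo and at 17.3, 12.0 and 46.8 CPM in sgLkb1, so the ranges overlapped widely (log2 ratio -0.07 ± 0.51, edgeR adjusted p = 0.94). Cyp1a1 had 7 and 2 counts in sgNeo replicates 2 and 3 and none in the other libraries, and Cyp1a2 had none at all. Ahr, the receptor's gene, was at 69.3, 58.8 and 44.2 CPM in sgNeo and at 38.1, 39.9 and 38.2 CPM in sgLkb1, without overlap and without passing (log2 ratio -0.57, edgeR adjusted p = 0.075). Of 8 tested targets of the receptor outside the P450 family, Aldh3a1 and Fosl2 rose and none fell. That is 25% called, beside 15.7% of all genes tested. Fosl2 lost its call without any 1 sgNeo library, at an edgeR adjusted p of up to 0.11. Aldh3a1, an aldehyde dehydrogenase, was at 3.81, 5.59 and 6.33 CPM in sgNeo and at 12.3, 23.1 and 16.3 CPM in sgLkb1 (log2 ratio 1.71, edgeR adjusted p = 0.0094), while Tiparp, among the most responsive targets, was at 76.0, 48.3 and 52.4 CPM against 119, 69.0 and 56.2 CPM (edgeR adjusted p = 0.34).

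The 45 members with counts below the filter were low. Counts of 1 to 3 over all 6 libraries were found for 19 of them, and 9 had more than 20. Besides Cyp11a1, Cyp26a1, Cyp2c55 and Cyp46a1 the larger ones were Cyp2u1, with 5 to 20 counts in every library, Cyp2d10, with 21 and 9 counts in sgLkb1 replicates 2 and 3, Cyp4x1, with 23 counts in sgLkb1 replicate 2, and Cyp3a57, with 19 counts in sgNeo replicate 3 and 6 in sgLkb1 replicate 3. Cyp11a1 passed the filter and was called higher when sgLkb1 replicate 1 was left out. Without the filter, edgeR tested 76 members and called 7 higher, against 2 with it, adding Cyp11a1, Cyp2c55, Cyp21a1, Cyp2s1 and Cyp3a13. It called 5 lower, with Cyp4f14 added and Cyp2c23 lost. Over all genes, the fit without the filter called 3440 of 31803, or 10.8%.

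Summed over all 94 members, P450 transcripts made up 627, 658 and 724 CPM in sgNeo and 599, 621 and 476 CPM in sgLkb1, with means of 670 ± 49.3 and 565 ± 77.9 CPM (SD, n = 3). The sgNeo and sgLkb1 sums lay next to each other without overlap. Cyp2f2 contributed 33.4, 37.7 and 30.1% in sgNeo and 10.4, 23.6 and 14.2% in sgLkb1, and Cyp4v3 13.6 to 19.5% in sgNeo and 2.08 to 3.33% in sgLkb1. Without these 2 genes the sum was 295, 320 and 407 CPM in sgNeo and 516, 461 and 397 CPM in sgLkb1, with means of 341 ± 59.0 and 458 ± 59.8 CPM and overlapping ranges. Cyp2s1 was the largest single contributor in sgLkb1 replicates 1 and 3, at 25.3 and 24.1%.

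To compare levels between genes, CPM was divided by the length of the merged exons in kilobases. In sgNeo Cyp2f2 led with 111 ± 10.0 CPM per kb (SD, n = 3), followed by Cyp4v3 with 27.2 ± 4.36, Cyp3a13 with 16.8 ± 8.09, Cyp4b1 with 12.5 ± 3.74 and Cyp2s1 with 11.2 ± 5.85. The step from Cyp2f2 to Cyp4v3 was far wider than their spread, whereas the SD ranges of Cyp3a13, Cyp4b1 and Cyp2s1 overlapped. In sgLkb1 Cyp2f2 was still first with 45.6 ± 23.2 CPM per kb, but Cyp3a13 with 26.9 ± 12.1, Cyp2s1 with 25.7 ± 4.35 and Cyp2b10 with 19.5 ± 8.59 followed, all with SD ranges that reached that of Cyp2f2. Cyp4v3 moved from rank 2 to rank 13 of the 31 and Cyp2b10 from rank 8 to rank 4.

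P450 enzymes depend on electron donors and on heme. Of 10 tested donors and partners 4 fell and 2 rose, or 60% called, with a median log2 ratio of 0.055. Over all genes tested 15.7% were called, with a median of 0.02. Por, the reductase that serves all P450s of the endoplasmic reticulum, was at 315, 303 and 343 CPM in sgNeo and at 314, 511 and 414 CPM in sgLkb1 and did not pass (log2 ratio 0.37 ± 0.20, edgeR adjusted p = 0.27). The 4 listed genes of cytochrome b5 and b5 reductase fell. Cyb5a, cytochrome b5, was at 204, 227 and 227 CPM in sgNeo and at 141, 146 and 127 CPM in sgLkb1 (log2 ratio -0.67, edgeR adjusted p = 0.018), and its mitochondrial relative Cyb5b was at 384, 373 and 336 CPM against 211, 203 and 196 CPM (log2 ratio -0.84, edgeR adjusted p = 0.0078). The b5 reductase genes Cyb5r1 and Cyb5r3 fell by 0.88 and 0.62 on the log2 scale. None of these 4 overlapped between groups. Cyb5b passed without each library, while Cyb5a passed only without sgLkb1 replicate 1, with edgeR adjusted p up to 0.089 otherwise, and Cyb5r1 did not pass without sgNeo replicate 1 or 2, at up to 0.067.

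Pgrmc1, a heme-binding membrane protein that associates with P450 enzymes, rose from 81.7, 90.1 and 118 CPM in sgNeo to 296, 226 and 160 CPM in sgLkb1 (log2 ratio 1.23 ± 0.25, edgeR adjusted p = 0.015), a call lost without sgNeo replicate 1 or 2, at up to 0.076. Fdx1, the ferredoxin that feeds the mitochondrial P450s, rose by less (log2 ratio 0.57 ± 0.16, edgeR adjusted p = 0.0495), from 50.3 to 55.8 CPM in sgNeo to 68.5 to 94.0 CPM in sgLkb1. Of 12 tested heme genes none rose and 2 fell, or 16.7% called, which is near the 15.7% of all genes tested. Alad, the second step of heme synthesis, was at 128, 106 and 112 CPM in sgNeo and at 72.3, 65.5 and 79.6 CPM in sgLkb1 (log2 ratio -0.67, edgeR adjusted p = 0.021), and Hmox1, which breaks heme down, was at 109, 99.0 and 113 CPM against 70.5, 48.8 and 62.4 CPM (log2 ratio -0.82, edgeR adjusted p = 0.016). Both calls were lost without any 1 sgNeo library or without sgLkb1 replicate 2, at up to 0.10 for Alad and 0.063 for Hmox1. Alas1, the rate-limiting first step, was at 128, 125 and 183 CPM in sgNeo and at 95.9, 86.7 and 125 CPM in sgLkb1, without overlap and without passing (log2 ratio -0.51, edgeR adjusted p = 0.15).

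**Figure D4:**
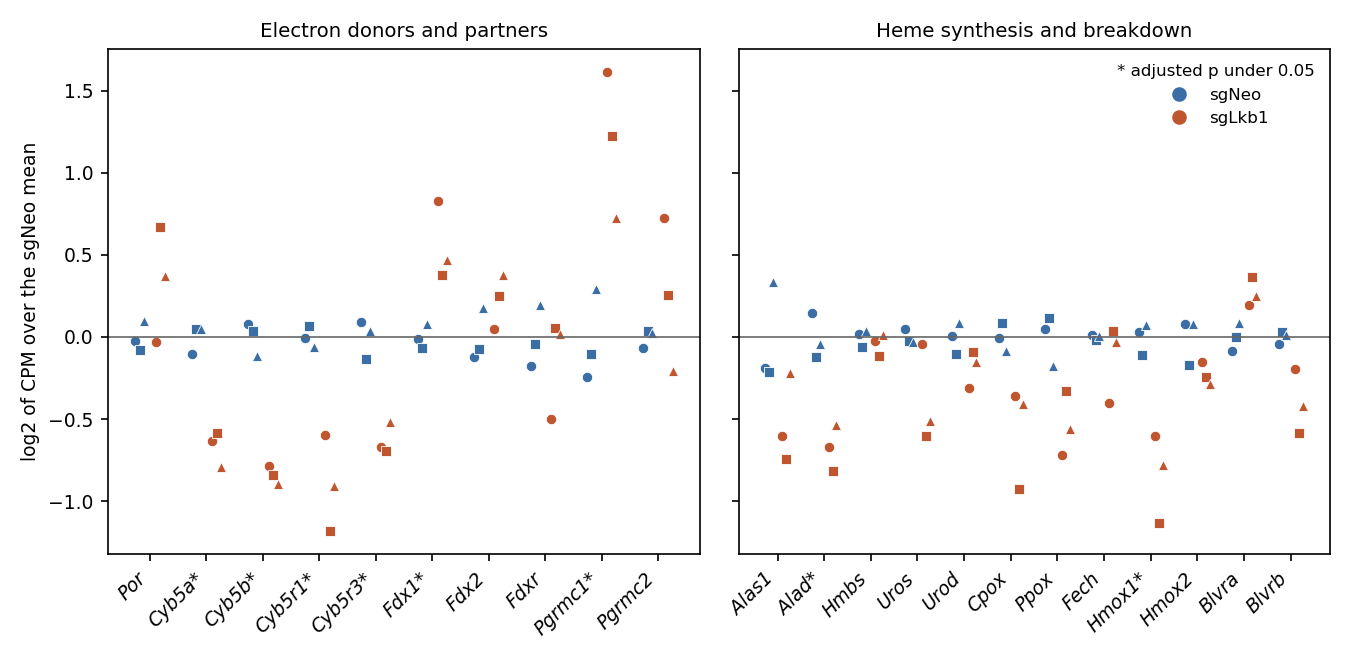
Log2 of CPM over the sgNeo mean for 10 electron donors and partners (left) and 12 genes of heme synthesis and breakdown (right), 1 symbol per library (blue sgNeo, orange sgLkb1; circle, square and triangle are replicates 1, 2 and 3). An asterisk marks an edgeR adjusted p under 0.05: Cyb5a, Cyb5b, Cyb5r1, Cyb5r3, Alad and Hmox1 lower, Fdx1 and Pgrmc1 higher.

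Among 21 tested regulators of P450 genes, Hnf4a and Nr1h4 rose and Cebpa and Nr1h3 fell. The called share of 19.05% is near the 15.7% of all genes tested, so nothing is read from it about the regulators as a group. Nr1h4, the bile acid receptor FXR, was near the limit of counting at 0.04, 0.12 and 0.16 CPM in sgNeo and at 0.51, 1.08 and 1.92 CPM in sgLkb1 (log2 ratio 3.40 ± 0.80, edgeR adjusted p = 0.026). It kept the call only without sgLkb1 replicate 1, with edgeR adjusted p up to 0.10 otherwise, and lost it by limma-voom, at 0.088. Arnt, the partner of the aryl hydrocarbon receptor, was at 44.4 to 51.1 CPM in sgNeo and 41.1 to 44.5 CPM in sgLkb1 (edgeR adjusted p = 0.52).

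Of 9 tested genes that release or process arachidonic acid, the substrate of the Cyp2c and Cyp4 enzymes, 2 rose and 2 fell. The called share was 44.4%, beside 15.7% of all genes tested. The epoxide hydrolases inactivate the products of Cyp2c epoxygenases. Ephx1, the microsomal one, was at 20.7, 15.3 and 18.96 CPM in sgNeo and at 6.14, 6.38 and 7.55 CPM in sgLkb1 and fell (log2 ratio -1.45 ± 0.22, edgeR adjusted p = 0.0042). Ephx2, the soluble enzyme, was at 5.58, 2.96 and 9.60 CPM in sgNeo and at 16.4, 20.9 and 16.9 CPM in sgLkb1 and rose (log2 ratio 1.58 ± 0.39, edgeR adjusted p = 0.031), and missed the threshold with sgNeo replicate 1 or 2, or sgLkb1 replicate 2 or 3, left out, at up to 0.10. Ptgs1, a cyclooxygenase, fell from 301 to 378 CPM in sgNeo to 74.0 to 147 CPM in sgLkb1 (log2 ratio -1.49, edgeR adjusted p = 0.0083), and Alox15, a lipoxygenase, rose from 0.12 to 0.28 CPM to 3.23 to 11.1 CPM (log2 ratio 5.42, edgeR adjusted p = 0.0017). Ephx1, Ptgs1 and Alox15 passed without each library.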

How the data were processed

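RNA from sorted tumour cells of digested lung was measured by bulk RNA-seq, with Nextera XT libraries per the labels' protocols. The authors deposited estimated counts per gene, made with FastQC, STAR and RSEM on GRCm38 per the submitters' processing notes, which also name DESeq2. No source used here gives versions, annotation release or strand setting, so reads of overlapping genes on opposite strands cannot be assigned here.

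The estimated counts were rounded and filtered with filterByExpr, leaving 15978 genes, and scaled by TMM. sgLkb1 was compared with sgNeo by edgeR's two-sided quasi-likelihood test (edgeR 4.0.16, limma 3.58.1, R 4.3.3) with Benjamini-Hochberg adjustment over all genes tested and a threshold of 0.05. The SE is the log2 ratio divided by the root of F. Summed counts of each subfamily replaced its members in a second fit. The script was tested on simulated data. Other settings tried were upper-quartile or RLE scaling, no filter or one of 1 CPM in 3 libraries, robust dispersion, a replicate block, DESeq2 1.42.0, limma-voom and each library left out.

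Values are given for every P450 gene that passed, for a fixed set of P450 genes, and, of each pathway list, for its first 2 tested members and up to 4 with the lowest p. Cyp2c65, Cyp4f13, Cyp4f14, Cyp4f17, Cyp21a1, the P450 genes named below the filter, Cebpb, Cyb5r3, Fdx1, Ppara, Nr1i3, Gkn1, Tat and Serpina1a were named after their values were seen. The members and lists were chosen with earlier results of these data known. Positions, exon lengths, overlaps and transcripts came from GENCODE M21 (GRCm38), where all 94 gene IDs were found. Within a group, libraries had equal counts in at most 1.33% of genes, so none was a duplicate.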

Additional observations from a re-analysis of the deposited data

How the results depend on the processing

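Cyp2c68, Cyp2c40 and Cyp4v3 were called under every alternative run. The number of P450 genes higher in sgLkb1, 2 with the settings of the report, was 7 without a filter on low counts, 4 with DESeq2, 1 with limma-voom and 0 to 2 with 1 library left out; the number lower, 5 in the report, was 3 to 4 with 1 library left out. Members tested numbered 31 with the settings of the report and 76 without the filter. Over all genes, the called share was 15.7% in the report, 10.8% without the filter, 22.3% with DESeq2 and 14.3% with limma-voom. It was 6.74 to 16.6% with 1 library left out. Subfamily sums gave 0 to 2 higher and 2 to 3 lower with 1 library left out. The cause of these differences was not tested, beyond fewer samples in the last.

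Correlations of deviations were weak between same-numbered libraries of the groups, at 0.135, -0.0214 and 0.115. Between libraries of different number they ran from -0.174 to 0.0885. Whether replicate numbers pair the samples is not settled by these values, and the report's fit had no block. With the replicate block edgeR called 2 P450 genes higher, Cyp2b10 and Cyp2s1, and 4 lower, with Cyp7b1 and Cyp2c23 not called, and 2880 of all genes against 2501. All genes called numbered 3559 with DESeq2, 3440 without the filter, 2279 with limma-voom and 1129 to 2780 with 1 library left out.

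Log2 ratios that changed sign were of genes that were not called. With the replicate block they became 0.051 for Cyp27a1, 0.35 for Cyp2c65, 0.48 for Cyp2j9 and 0.42 for Cyp4f39. With limma-voom they were 0.082, 0.046, 0.97 and 0.66 for the same genes. Cyp4f16 was at 0.012 with RLE scaling, 0.018 without the filter and 0.012 with DESeq2. With 1 library left out the ranges were -0.87 to 0.38 for Cyp1b1, -0.39 to 0.51 for Cyp26b1, -0.61 to 0.89 for Cyp27a1, -2.74 to 1.92 for Cyp2c65, -1.28 to 1.66 for Cyp2j9, -0.37 to 0.043 for Cyp39a1, -0.12 to 0.15 for Cyp4f16, -1.14 to 2.18 for Cyp4f39, -0.046 to 0.33 for Hsd3b7, -0.47 to 2.43 for Stra6 and -0.15 to 0.55 for Tbxas1. The alternatives were tallied over P450 genes, named pathway genes and summed subfamilies together. Of these values 900 stayed on their side of the threshold, 77 lost a call, 27 gained one and 28 changed sign. The median log2 ratio of all genes was 0.0184 in the report's fit and 0.0302 to 0.0477 under the other scalings. Depth limits the members below the filter, since 3 counts stood for 0.073 to 0.12 CPM.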

Other observations

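Of 3 P450 superfamily genes whose symbols fall outside the naming rule, 1 rose, or 33.3% called beside 15.7% of all genes tested. With 3 genes, nothing is read from this share. Ptgis, prostacyclin synthase, was at 0.72, 0.49 and 1.43 CPM in sgNeo and at 4.04, 4.91 and 57.5 CPM in sgLkb1 (log2 ratio 4.64, edgeR adjusted p = 0.028), a call lost without any 1 sgNeo library, at up to 0.11, and by limma-voom, at 0.25. The highest value was in sgLkb1 replicate 3, where the summed fibroblast markers stood at 1424 CPM against 187 and 268 CPM in the other two sgLkb1 libraries. The part of fibroblasts in this result was not tested. Cyp51, the lanosterol demethylase of cholesterol synthesis, was at 87.6, 63.8 and 70.0 CPM in sgNeo and at 94.3, 85.3 and 85.6 CPM in sgLkb1 and did not pass (log2 ratio 0.26, edgeR adjusted p = 0.32), and neither did Tbxas1, thromboxane synthase.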
